A study of Mus musculus with 4 samples.

Results

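The cells described here are the tdTomato-positive cells of the mouse telencephalic midline at E11.5, compared between embryos that carry a gain-of-function allele of beta-catenin and controls. A cell was counted as a reporter cell if its barcode held at least 1000 genes, at most 10% of its UMIs (unique molecular identifiers, each standing for 1 captured transcript) in mitochondrial genes, and at least 2 UMIs of the tdTomato sequence. The control library gave 639 such cells and the gof library 341, together 980 of the 27196 barcodes of the series that passed the gene and mitochondrial limits. The control genotype was Lmx1aCre::Ai9 and the gof genotype Lmx1aCre::Ai9::b-cat gof, so both carried the Cre and the reporter and differed in the beta-catenin allele. Each E11.5 library was a single pool of 5 male embryos, and the E14.5 libraries, used for comparison, were single pools of 3 males of the same 2 genotypes. Tissue had been dissected from both hemispheres around the cortical hem and took in Cajal-Retzius cells and some of the hippocampal primordium. With 1 library a side there are no replicates, so no test was possible, and every interval given below covers counting error only and not the variation between pools.

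Lmx1a is a LIM-homeodomain transcription factor of the roof plate and of the cortical hem, a strip of neuroepithelium at the medial border of the cortex and a source of Wnt and BMP ligands. Cre made from it recombines Ai9, after which a cell and its offspring make tdTomato. The hem gives rise to many of the Cajal-Retzius neurons, which secrete reelin over the cortical surface, and it borders the choroid plexus epithelium, whose cells carry motile cilia. Beta-catenin is the intracellular carrier of the canonical Wnt signal: stabilised, it enters the nucleus and activates genes together with TCF and LEF factors. The known feedback targets of that signal, such as Notum, Dkk1, Wif1, Nkd1, Sp5 and Axin2, are set aside here. Of the 13 measured members of that list, 10 were higher in gof by the limits defined below and none was lower, with a median log2 ratio of 0.98. Without the non-neural range defined below 9 of 13 were higher, and Axin2 was not among them.

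The label of a hem lineage was checked against markers. Summed over 9 hem genes, the level was 2369 CPM (UMIs of a gene scaled to a library total of 1000000) in control and 1527 CPM in gof reporter cells, against 830 and 762 CPM in cells of the same libraries without a tdTomato UMI and outside the non-neural range defined below (tdTomato-0 cells). Gdf7, a roof plate BMP ligand, was nearly absent, with 1 UMI in control and 0 in gof reporter cells. The 5 choroid plexus markers summed to 763 CPM in control cells and 343 CPM in gof cells, against 137 and 96.5 CPM in tdTomato-0 cells. Ctnnb1, the gene of beta-catenin, was at 308 CPM (298 to 319) in control cells and 328 CPM (312 to 345) in gof cells. The counts come from the 3′ ends of transcripts and do not check the allele, whose structure the labels do not give.

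tdTomato was detected sparsely, and the count of reporter cells moved with depth. They made up 9.18% of the kept control barcodes (exact binomial 95% interval 8.51 to 9.88) and 4.49% of the gof ones (4.04 to 4.98), but kept barcodes held a median of 8500.5 UMIs in control and 5872 in gof. With every barcode thinned to 3000 UMIs, which left out 104 control and 658 gof barcodes, the shares were 1.30% (1.04 to 1.59) and 1.08% (0.85 to 1.35), and their intervals overlapped. Cells with at least 0.3% of their UMIs in mesenchymal markers were assumed to lack the reporter, which was not checked. They passed the tdTomato limit in 4 of 466 control and 8 of 1000 gof cases, 0.858% (0.234 to 2.18) and 0.8% (0.346 to 1.57), at median depths of 7082.5 and 5917 UMIs. In the E14.5 libraries 3 of 54 control and 7 of 87 gof cells of this kind passed it, 5.56% (1.16 to 15.4) and 8.05% (3.30 to 15.9). Just inside the limit, at 2 tdTomato UMIs, were 323 control and 185 gof cells. Just outside it, at 1 UMI, were 782 and 757. Reporter cells summed to 11460608 UMIs in control and 4596631 in gof, with medians of 14561 and 10525 UMIs a cell.

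Some reporter barcodes also held transcripts of other cell types. Haemoglobin took over 1% of the UMIs in 53 control (8.29%) and 7 gof (2.05%) reporter cells. The summed level of 10 mesenchymal markers was 153 CPM in control cells and 266 CPM in gof cells, and that of 7 endothelial markers 39.9 and 74.2 CPM. For the 8 immune markers the sums were 22.3 and 44.6 CPM, and for the 9 erythroid ones 9159 and 10880 CPM. A single gof barcode of 87301 UMIs held 18167 erythroid UMIs, and without it the gof erythroid sum was 7062 CPM. No control barcode was left out in the same way, so that sum is not compared with control. No marker of these 4 lists was at 0 in either group, and 3 of 8 epithelial and neural crest markers were at 0 in each, with sums of 45.8 and 43.9 CPM. Without the 186 control and 109 gof reporter cells that held at least 2 UMIs of mesenchymal, endothelial or immune markers or over 1% haemoglobin, called the non-neural range below, the mesenchymal sums were 13.9 and 21.6 CPM, the endothelial 4.64 and 9.22 CPM, the immune 0.599 and 0 CPM and the erythroid 299 and 516 CPM. The limit of 2 UMIs is not scaled to depth, so deep cells enter this range more readily, and it is not a cell type. Fewer UMIs remain without these cells, which widens the intervals. Where a gene named from a list lost its call without these cells, that is stated with the list.

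Counts were summed over the reporter cells of each library and scaled to CPM. A gene was called higher or lower if it reached 10 CPM in either group, differed by at least 1.5-fold on log2(CPM + 1), and had exact 95% Poisson intervals that did not overlap. Where a pair of values is given, control comes first. Among 8725 genes that reached that level, 428 (4.91%) were higher and 490 (5.62%) lower in gof, and the median log2 ratio of all of them was -0.08. Scaled to a total without mitochondrial, ribosomal and haemoglobin genes, 571 were higher and 434 lower, so the share of higher calls among all calls was 56.8% in place of 46.6%. These shares are the background for every count in reporter cells below. Without the non-neural range 451 genes (5.21%) were higher and 511 (5.9%) lower, and without the cells over 1% haemoglobin 443 (5.09%) and 472 (5.42%). Among called genes of at least 50 CPM outside the Wnt target list and with no cell giving over 10% of the higher group's UMIs, the furthest above control were Mybpc1, Phlda1, Pam, Aspscr1 and Cd200, and the furthest below it Hes5, H1f5, Hist1h2ap, Ttr and Id1.

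**Figure D1:**
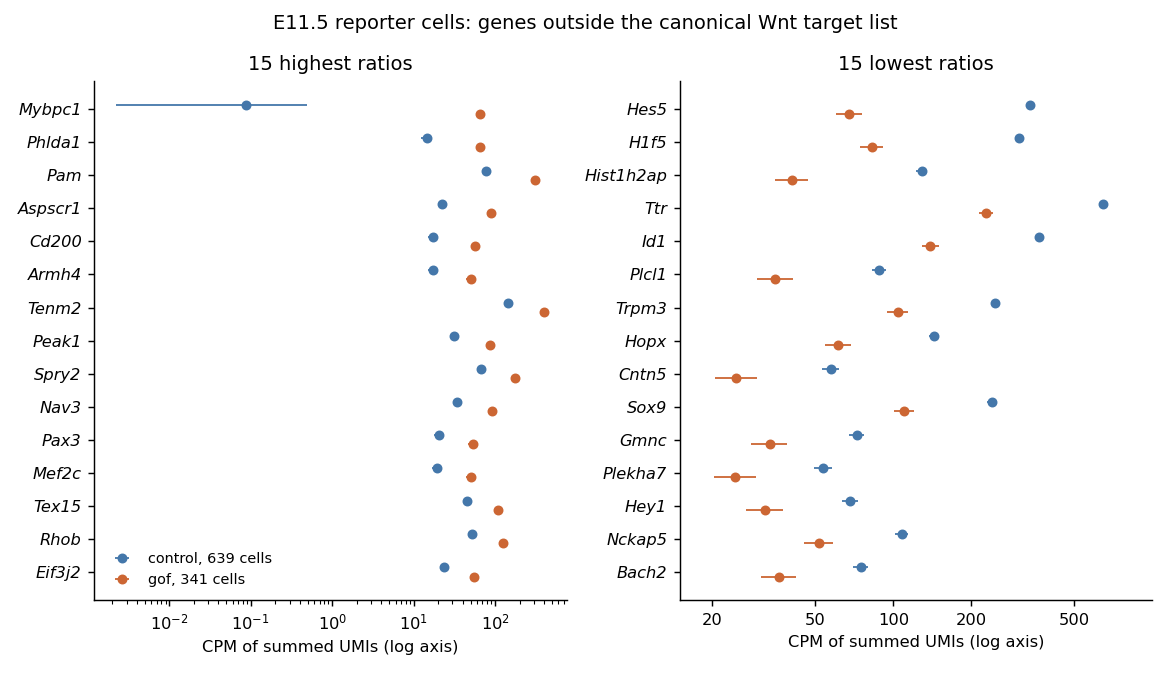
Summed CPM (log axis) of the 15 genes with the highest and the 15 with the lowest ratios by that rule, in 639 control (blue) and 341 gof (orange) E11.5 reporter cells. Points are the libraries' values and bars exact 95% Poisson intervals. The 2 intervals are apart for every gene, as the choice of genes requires, and the control point of Mybpc1 rests on 1 UMI.

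Mybpc1, which encodes a myosin-binding protein of skeletal muscle sarcomeres, was nearly undetected in control. It had 1 UMI in the control reporter cells, 0.087 CPM (0.0022 to 0.49), and 300 UMIs in 94 gof cells, 65.3 CPM (58.1 to 73.1). The ratio was 748-fold with a counting interval of 133 to 29641, and the cell with most of its UMIs gave 6.33% of them. The gene spans chr10:88518279-88605152 (GRCm38, minus strand). In tdTomato-0 cells it was at 0.241 CPM in control cells and 6.70 CPM in gof cells.

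Phlda1, a pleckstrin homology-like protein known as an immediate-early and growth factor response gene, was at 14.4 CPM (12.3 to 16.8) in control cells and 65.0 CPM (57.9 to 72.9) in gof cells, a log2 ratio of 2.10. Pam, the enzyme that amidates the ends of secreted peptides, was at 77.7 CPM (72.7 to 83.0) and 306 CPM (290 to 322), a log2 ratio of 1.96. Both were spread over many cells: the highest cell gave 4.01% of the gof UMIs of Phlda1 and 4.27% of those of Pam. Aspscr1, which encodes the glucose transporter tether TUG, was at 22.5 CPM (19.8 to 25.4) and 89.6 CPM (81.2 to 98.7), a log2 ratio of 1.95. Aspscr1 lies 11797 bases from the Wnt feedback gene Notum on chromosome 11, on the opposite strand. Cd200, a membrane glycoprotein that restrains myeloid cells, was at 17.5 CPM (15.2 to 20.1) and 57.4 CPM (50.7 to 64.8), a log2 ratio of 1.66.

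Tenm2, a teneurin that joins cells through latrophilins (chr11:36006656-37235964), was at 142 CPM (136 to 150) in control cells and 397 CPM (379 to 416) in gof cells, a log2 ratio of 1.47. Pax3, a paired-box factor of the dorsal neural tube behind the telencephalon and of neural crest, was at 20.5 CPM (17.97 to 23.3) and 53.5 CPM (47.0 to 60.6), a log2 ratio of 1.34. It was the 1 of 6 measured transcription factors of other brain territories that passed the limits, and Pax7, its close relative, was at 9.95 and 13.3 CPM with overlapping intervals. Leaving out the non-neural range gave 3 of 8 such factors higher, with Olig3 at 1.16 and Irx5 at 1.004 besides Pax3, and the progenitor range gave 1 lower, Lhx9 at -1.30. Rhob, a small GTPase of endosomes and the actin skeleton, was at 51.7 CPM (47.6 to 56.0) and 124 CPM (114 to 135), a log2 ratio of 1.25. The remaining genes among the 15 highest were Armh4, the kinase-like scaffold Peak1, the FGF feedback inhibitor Spry2, the microtubule-associated Nav3, the transcription factor Mef2c, the germ-cell gene Tex15 and the initiation factor gene Eif3j2, with log2 ratios of 1.49, 1.44, 1.39, 1.37, 1.33, 1.26 and 1.21.

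The genes with the lowest ratios came from several programmes. H1f5, a linker histone, was at 306 CPM (296 to 317) in control cells and 82.7 CPM (74.6 to 91.4) in gof cells, a log2 ratio of -1.88. Id1, a BMP-induced inhibitor of bHLH factors, was at 365 CPM (354 to 376) and 139 CPM (128 to 150), a log2 ratio of -1.39. Hopx, an atypical homeodomain protein of medial and outer radial glia, was at 144 CPM (137 to 151) and 61.3 CPM (54.4 to 68.9), a log2 ratio of -1.21. Sox9, the SRY-box factor of neural progenitors, was at 240 CPM (231 to 249) and 110 CPM (101 to 120), a log2 ratio of -1.11. Cntn5, Plekha7, Nckap5 and Bach2 were also among the 15, with log2 ratios of -1.17, -1.09, -1.05 and -1.03. The others, Hes5, Hist1h2ap, Ttr, Plcl1, Trpm3, Gmnc and Hey1, are described with their groups below.

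The same ratio was taken in the 4406 control and 4363 gof cells of the same libraries that held no tdTomato UMI and lay outside the non-neural range. There, of 8203 measured genes, 328 (4%) were higher and 258 (3.15%) lower in gof. These cells share their libraries with the reporter cells, hold other cell types, and may include reporter cells whose tdTomato was missed, so values are only set side by side. Unless stated, reporter values set beside them include the non-neural range, which these cells leave out. Without that range the reporter ratios were 2.17 for Pam and -2.47 for Hes5. Tenm2 had a log2 ratio of 1.47 in reporter cells and -0.13 in tdTomato-0 cells, and Rhob 1.25 and 0.04. Aspscr1 had 1.95 and 0.51, and Pam 1.96 and 1.15. Spry2 had nearly equal ratios of 1.39 and 1.33. Peak1 was further above control outside the reporter cells, at 2.41, than inside them, at 1.44. Among the low genes, Hes5 and H1f5 were further below control in tdTomato-0 cells, at -2.72 and -2.35, than in reporter cells, at -2.30 and -1.88. Trpm3 stood at -1.24 in reporter cells and -0.24 outside, and Gmnc at -1.10 and 0.32. The differences between the 2 kinds of cell were not tested, and genotype, pool and library cannot be told apart in either, Hes5, the linker histones and Peak1 included.

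**Figure D2:**
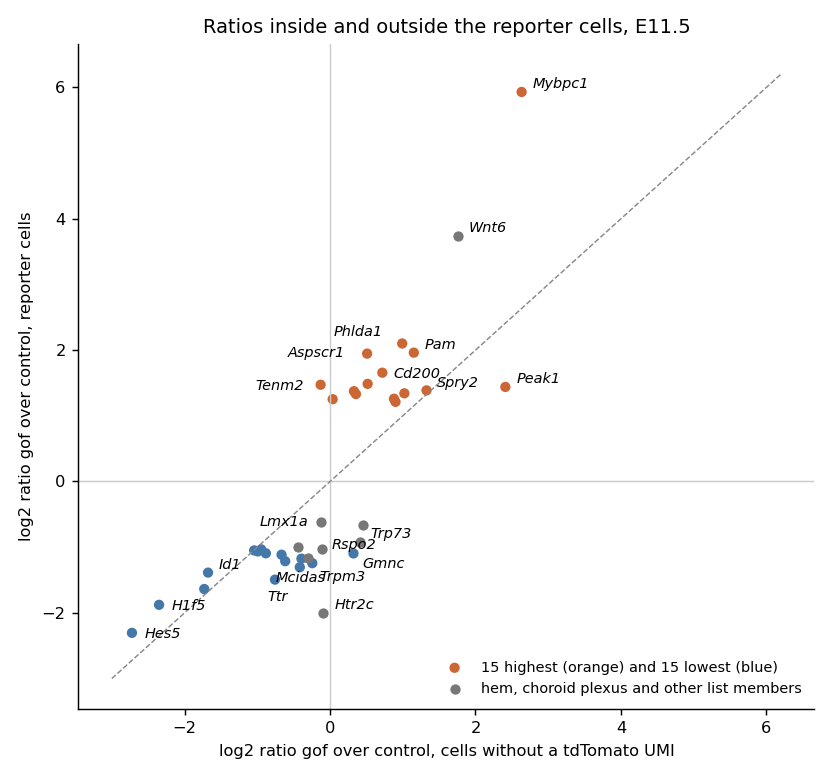
Log2 ratio gof over control in E11.5 reporter cells (vertical) against the same ratio in cells without a tdTomato UMI outside the non-neural range (horizontal), for the 15 highest (orange) and 15 lowest (blue) genes and 8 further list members (grey). The dashed line marks equal ratios: Spry2 and Id1 lie near it, Tenm2 and Aspscr1 above it and Peak1 below it. Genes were chosen by the vertical axis, and both axes come from the same 2 libraries. Cells of the non-neural range are included in the vertical axis only.

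Notch signalling, in which Delta and Jagged ligands on one cell keep its neighbours as progenitors through Hes and Hey repressors, gave calls in 1 direction. Of 17 measured members, 5 were lower and none higher, with a list median of 0.00. Hes5, the repressor most directly induced by Notch in the neural tube (chr4:154960923-154962371), was at 337 CPM (326 to 348) in control cells and 67.4 CPM (60.1 to 75.4) in gof cells, a log2 ratio of -2.30. Hey1, a related repressor, was at 68.0 and 32.0 CPM, a log2 ratio of -1.06. Lfng, the glycosyltransferase that tunes Notch receptors, was at 21.8 and 8.92 CPM, and the feedback gene Nrarp at 56.7 and 31.3 CPM. The receptor gene Notch1 was at 40.7 and 26.8 CPM, a log2 ratio of -0.59. The ligand gene Jag1 and Hes6, a Hes member that promotes neurogenesis, did not pass the limits, at log2 ratios of 0.52 and 0.55. Without the non-neural range, Jag1 and Hes6 passed them, and the 5 low genes stayed low. In tdTomato-0 cells 4 of 17 measured members, Hes5, Hey1, Lfng and Nrarp, were lower and none was higher.

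The 250 bases before the start of Hes5 are printed because it had the lowest ratio of the 15 and because RBPJ, the DNA-binding partner of Notch, reads the word GTGGGAA. Capitals mark that word on either strand. The sequence is from RefSeq, GRCm38.p6, plus strand, chr4:154960673-154960922.
Hes5: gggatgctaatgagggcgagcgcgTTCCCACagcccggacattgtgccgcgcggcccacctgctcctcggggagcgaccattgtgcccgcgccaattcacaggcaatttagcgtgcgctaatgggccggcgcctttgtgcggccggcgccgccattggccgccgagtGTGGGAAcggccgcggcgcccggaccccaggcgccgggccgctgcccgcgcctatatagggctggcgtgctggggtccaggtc
The window held 2 matches. Among the 4 lower Notch genes with a promoter in that table, 2 held the word (Hes5 and Lfng). It was in 6.02% of the promoters of the 7049 measured genes that matched, in 7.28% of 316 promoters of higher genes and in 6.54% of 382 of lower genes, both without the Wnt targets.

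The hem's own Wnt signals were more often below control than above it. Of 11 measured Wnt and R-spondin ligand genes, 4 were lower and 1 higher, with a list median of -0.38 against -0.08 for all genes. Rspo2, an R-spondin that amplifies Wnt signals at the receptor, was at 576 CPM (562 to 590) in control cells and 282 CPM (267 to 298) in gof cells, a log2 ratio of -1.03. Wnt3a, the ligand needed for hippocampal growth, was at 48.0 CPM (44.1 to 52.2) and 29.8 CPM (25.0 to 35.2), a log2 ratio of -0.67. Wnt5a and Wnt5b, ligands best known outside the canonical pathway, were at 33.4 and 18.3 CPM and at 41.9 and 25.7 CPM. In tdTomato-0 cells none of 9 measured members passed the limits, and the list median was -0.10.

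The higher ligand gene was Wnt6 (chr1:74771892-74785322), which had 9 UMIs in control, 0.785 CPM (0.359 to 1.49), and 105 UMIs in gof, 22.8 CPM (18.7 to 27.7), a ratio of 29.1-fold with a counting interval of 14.8 to 65.4. The highest cell gave 3.81% of the gof UMIs. In tdTomato-0 cells Wnt6 was at 0.433 and 3.83 CPM. Among 16 measured Wnt receptors and secreted antagonists, Fzd10, a frizzled receptor of the dorsal neural tube, was higher at 18.4 and 41.3 CPM, and Lgr4, an R-spondin receptor, at 12.7 and 19.6 CPM. Fzd9 was lower at 11.7 and 4.57 CPM, and the list median was -0.02. Lgr4 no longer passed the limits without the non-neural range, at a log2 ratio of 0.19.

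Roof plate and hem transcription factors gave few calls. Of 11 measured, 2 were lower and none higher, with a median of 0.10. The 2 were Lmx1a and Id3, and Id3 is counted again among the BMP targets below. Zic4 passed as higher without the non-neural range, at 0.61. Lmx1a itself was at 88.8 CPM (83.5 to 94.5) in control cells and 57.4 CPM (50.7 to 64.8) in gof cells, a log2 ratio of -0.62. Among all reporter cells the Zic genes, zinc-finger factors of the dorsal midline, did not pass the limits: Zic1 was at 312 and 410 CPM, and Zic4 at 163 and 239 CPM. tdTomato, whose gene the Cre switched on and which chose the cells, was at 172 CPM in control cells and 215 CPM in gof cells.

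BMP ligand genes stood on both sides of control, and the BMP targets that passed the limits were lower. Bmp4 was higher at 70.1 CPM (65.3 to 75.1) in control cells and 116 CPM (106 to 126) in gof cells, a log2 ratio of 0.72. Bmp6, another hem ligand, was lower at 89.1 CPM (83.7 to 94.7) and 52.2 CPM (45.8 to 59.3), a log2 ratio of -0.76. Bmp5 at 45.0 and 62.7 CPM and the antagonist gene Sostdc1 at 57.6 and 48.5 CPM did not pass the limits, and 1 of 7 measured ligands and antagonists passed in each direction. Of 16 BMP receptors and target genes, 4 were lower and none higher, with a median of -0.24. Besides Id1, these were Id3 at 2480 and 1468 CPM, Id4 at 94.7 and 55.0 CPM and the receptor gene Bmpr1b at 23.9 and 14.4 CPM. Id4 no longer passed without the non-neural range, at a log2 ratio of -0.47. Msx1, a homeobox target of BMP in the roof plate, was at 117 and 132 CPM with a log2 ratio of 0.17. In tdTomato-0 cells Msx1 was higher, at 19.8 and 30.5 CPM, a log2 ratio of 0.60. It was the 1 higher member there of 15 measured receptors and targets, and 4 were lower. In tdTomato-0 cells Id1 and Id3 were further below control, at -1.68 and -1.08, than in reporter cells, at -1.39 and -0.76. The tdTomato-0 cells leave out the non-neural range, and without it the reporter ratios of Id1 and Id3 were -1.59 and -0.84.

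FGF pathway genes, feedback inhibitors among them, were more often above control than below it. Of 16 measured members, 5 were higher and 1 lower, with a median of 0.38. Spry2, an inhibitor induced by FGF, was at 66.8 CPM (62.1 to 71.7) in control cells and 176 CPM (164 to 189) in gof cells. The phosphatase gene Dusp6 was at 26.9 and 44.8 CPM and the Ets factor gene Etv5 at 21.2 and 37.2 CPM, both targets of the same pathway. Spred3, a further inhibitor gene, was at 6.89 and 11.7 CPM. Fgf8, a ligand of the rostral midline, was at 37.1 and 64.0 CPM, with 11.2% of the gof UMIs from 1 cell. The receptor gene Fgfr3, graded along the cortex, was lower at 14.6 and 9.14 CPM. Etv5 and Spred3 no longer passed without the non-neural range, at log2 ratios of 0.52 and 0.53. In tdTomato-0 cells 4 of 15 measured members were higher and 1 lower.

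Other morphogen pathways gave few calls. Of 8 measured Shh pathway genes, only the co-receptor gene Boc passed the limits, at 33.2 CPM in control cells and 21.3 CPM in gof cells, a log2 ratio of -0.61. With cells thinned to 3000 UMIs its ratio had the other sign, 0.32. Boc also lost its call without the non-neural range, at -0.24, and without the barcodes over 1% haemoglobin. Of 6 measured retinoic acid genes, 2 were higher. Rdh10, which makes the aldehyde precursor of retinoic acid, was at 11.1 and 18.1 CPM. Crabp1, a retinoic acid carrier, was at 17.7 and 52.0 CPM, with 10.9% of the gof UMIs from 1 cell, and without the non-neural range its log2 ratio of 0.46 did not pass.

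The choroid plexus genes that passed the limits were all lower in gof reporter cells. Of 14 measured members, 7 were lower and none higher, with a median of -0.51. Leaving out the non-neural range gave 6 lower and 1 higher of 12, the higher one being Wfdc2, a secreted protease-inhibitor-like gene, at 0.69. In tdTomato-0 cells 1 of 9 was lower and the median was 0.27. Ttr, which encodes the thyroid hormone carrier transthyretin, was at 644 CPM (629 to 659) in control cells and 228 CPM (214 to 242) in gof cells, a log2 ratio of -1.49. A single cell gave 40.3% of the gof UMIs of Ttr, and without it the gof level was 137 CPM (126 to 148) and the log2 ratio -2.23. Among reporter cells of the neuron range, defined below, the Ttr ratio was 0.16. Htr2c, a serotonin receptor gene of this epithelium, was at 21.3 CPM (18.7 to 24.1) and 4.57 CPM (2.83 to 6.98), a log2 ratio of -2.001, and 1 cell gave 11.48% of its control UMIs. Another gave 52.4% of its gof UMIs, without which gof stood at 2.18 CPM (1.05 to 4.02) and the log2 ratio at -2.81. Trpm3, a cation channel gene that hosts a microRNA of this tissue, was at 248 CPM (239 to 257) and 104 CPM (94.9 to 114), a log2 ratio of -1.24. Plcl1, a phospholipase-like signalling gene, was at 88.0 and 35.03 CPM, a log2 ratio of -1.31. Rbm47, Calml4 and Krt18 were the others, at log2 ratios of -0.94, -0.65 and -0.64, and Calml4 and Krt18 no longer passed without the non-neural range. Folr1 at 39.4 and 40.2 CPM and Clic6 at 57.8 and 67.7 CPM, 2 of the epithelium's defining markers, did not pass the limits. Kcnj13, another of them, was under 10 CPM in both groups.

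Genes for making multiple cilia were mostly lower as well. Of 12 measured members, 8 were lower and none higher, and the median was -0.72. Gmnc, the geminin-family protein that starts the multiciliation programme (chr16:26913553-26991652), was at 72.2 CPM (67.4 to 77.3) in control cells and 33.3 CPM (28.2 to 39.0) in gof cells, a log2 ratio of -1.10. Mcidas, which acts next to it, was at 13.96 CPM (11.9 to 16.3) and 5.66 CPM (3.69 to 8.29), a log2 ratio of -1.17. Ccno, a cyclin-like gene of centriole amplification, was at 12.7 and 5.44 CPM, and the transcription factor gene Myb at 10.3 and 4.35 CPM. Foxj1, the master factor of motile cilia, was at 27.4 and 15.4 CPM. Rfx2 at 22.9 and 10.0 CPM and Rfx4 at 152 and 100 CPM belong to the regulatory factor X family of ciliary gene activators, and Mns1, at 30.3 and 18.9 CPM, encodes a protein of the ciliary axoneme. Rfx3 and the transport gene Ift88 did not pass the limits, at log2 ratios of 0.17 and 0.19. Without the non-neural range 6 of 13 measured members were lower, Rfx4 and Myb no longer among them, and in tdTomato-0 cells 1 of 9 was lower and 1 higher.

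The 250 bases before the outer start of Gmnc are shown because it was 1 of 2 genes among the 15 lowest (with Bach2) whose window held CTTTGA, the word read by TCF and LEF factors. Capitals mark it on either strand. A gene counts as holding a word if any of its windows does: the table holds 2 starts of Gmnc, and the window of the other, chr16:26968246-26968495, has no match. The sequence shown is from RefSeq, GRCm38.p6, minus strand, chr16:26991653-26991902.
Gmnc: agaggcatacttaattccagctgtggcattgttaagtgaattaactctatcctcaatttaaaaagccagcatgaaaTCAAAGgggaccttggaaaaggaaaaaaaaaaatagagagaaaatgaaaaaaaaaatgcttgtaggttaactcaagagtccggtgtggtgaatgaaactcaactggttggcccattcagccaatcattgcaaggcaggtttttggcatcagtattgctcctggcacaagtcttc
That word was in 12.1% of the promoters of the 7049 matched measured genes, in 15.2% of 316 promoters of higher genes and in 11.8% of 382 of lower genes. None of the 10 matched promoters among the 15 highest genes held it, and 4 of 10 matched canonical targets did (Dkk1, Lef1, Sp5 and Tnfrsf19). A match describes the letters only.

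Cajal-Retzius genes were split. Of 14 measured identity genes, 5 were higher and 2 lower, with a median of 0.42. Trp73, a p53-family gene that marks hem-derived Cajal-Retzius cells and also acts in multiciliation, was at 20.6 CPM (18.05 to 23.4) in control cells and 10.4 CPM (7.70 to 13.8) in gof cells, a log2 ratio of -0.92. Lhx1, a LIM factor of these and other early neurons, was at 6.81 CPM (5.38 to 8.49) and 21.5 CPM (17.5 to 26.2), with 12.1% of the gof UMIs from 1 cell. Calb2, calretinin, was at 3.14 and 12.4 CPM, with 21.1% of the gof UMIs from 1 cell, and within the neuron range its log2 ratio was -1.41. Ebf1 and Ebf3, helix-loop-helix factors of early neurons, were at 22.8 and 43.1 CPM and at 9.69 and 17.6 CPM, and Nhlh2 at 18.8 and 31.3 CPM. Ebf1 had 11.1% of its gof UMIs in 1 cell and no longer passed without the non-neural range, at 0.38. Reln at 30.0 and 36.1 CPM, Lhx5 at 28.4 and 26.3 CPM and Ebf2 at 28.4 and 21.5 CPM did not pass the limits. In tdTomato-0 cells 6 of 15 measured identity genes were higher and none lower, with a median of 0.55.

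Neuronal genes in general were above control more often than below it. Of 15 measured pan-neuronal genes, 5 were higher and 1 lower, with a median of 0.34. L1cam, an adhesion molecule of axons, was at 1.48 CPM (0.864 to 2.37) in control cells and 10.0 CPM (7.33 to 13.3) in gof cells, and Stmn2, a tubulin-binding protein of growth cones, at 73.1 and 119 CPM. Elavl4, an RNA-binding protein of neurons, was lower at 79.8 CPM (74.7 to 85.2) and 41.8 CPM (36.1 to 48.1). Of 11 proneural and intermediate progenitor genes, 3 were higher and 1 lower. Gadd45g, a growth arrest gene of cells leaving the cycle, was at 87.8 CPM (82.4 to 93.4) and 200 CPM (187 to 214), a log2 ratio of 1.18. Insm1 was at 14.3 and 22.4 CPM and Nhlh1 at 13.4 and 20.7 CPM, and Nhlh1 did not pass without the non-neural range, at 0.39. Insm1 had a log2 ratio of -0.21 among cells with at least 5 tdTomato UMIs. Eomes, the T-box factor of intermediate progenitors, was lower at 15.1 CPM (12.9 to 17.5) and 7.18 CPM (4.94 to 10.1). In tdTomato-0 cells it stood on the other side, at 16.2 and 26.6 CPM. There 3 of 17 measured pan-neuronal genes were higher and none lower, with a median of 0.41. Of 13 measured proneural and intermediate progenitor genes in those cells, 3 were higher and none lower, with a median of 0.32.

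The balance of neuronal and progenitor transcripts among the reporter cells was described by a range. A cell was put in the neuron range if, thinned to 3000 UMIs, it held more UMIs of 8 neuronal genes than of 6 progenitor genes. This held for 44 of 635 control cells, 6.93% (5.08 to 9.19), and for 42 of 322 gof cells, 13.0% (9.56 to 17.2), with intervals over the cells of 1 library each. The 8 neuronal genes are all in the pan-neuronal list, whose counts are therefore not given within the ranges. It is a range and not a cell type: 183 control and 130 gof cells lay within 3 UMIs of the cut. Within the progenitor range 408 of 8664 genes (4.71%) were higher and 517 (5.97%) lower, and of 11 measured Cajal-Retzius genes 2 were higher and 2 lower. There Trp73 had a log2 ratio of -2.02, Eomes -2.18 and Gmnc -1.38. The part of the cell mixture in the neuronal ratios was not tested further.

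Pallial patterning factors were mostly below control. Of 18 measured, 8 were lower and 1 higher, with a median of -0.35. Emx1 and Emx2, homeobox genes of the dorsal pallium and hippocampus, were at 63.3 CPM (58.7 to 68.0) and 31.1 CPM (26.2 to 36.6), and at 172 and 110 CPM. Lhx2, the selector gene that holds cortical cells apart from hem fate, was at 218 and 118 CPM, a log2 ratio of -0.88. Nfix was at 52.96 and 28.9 CPM, Tfap2c at 42.9 and 23.3 CPM and Dmrt3 at 63.3 and 38.1 CPM. Without the non-neural range 6 members were lower, and Emx2, at a log2 ratio of -0.56, no longer passed. Dmrta1, a medial pallial factor, was the higher member, at 27.3 CPM (24.4 to 30.5) and 45.5 CPM (39.5 to 52.1).

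Progenitor genes gave 5 lower and no higher members of 18, with a median of -0.20. Besides Hopx and Sox9, these were Sox1 at 14.7 and 8.05 CPM, the intermediate filament gene Nes at 113 and 68.3 CPM, and Ptprz1, a receptor phosphatase of radial glia, at 63.0 and 39.4 CPM. Ptn, the growth factor that binds Ptprz1, was at 304 and 429 CPM and did not pass the limits. Sox1 and Ptprz1 no longer passed without the non-neural range, at log2 ratios of -0.42 and -0.46.

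Cell cycle genes gave few calls, mostly lower. Of 29 measured S phase genes, 5 were lower and none higher, with a median of -0.33, and of 34 genes of G2 and mitosis 1 was lower, with a median of -0.15. Tyms, which makes thymidylate, was at 137 CPM in control cells and 87.5 CPM in gof cells, and the replication licensing gene Cdt1 at 29.5 and 17.4 CPM. Cdt1 no longer passed without the non-neural range, at -0.54, where 4 S phase genes were lower. Cenpf, a kinetochore gene, was at 338 CPM (328 to 349) and 218 CPM (204 to 232). Cdkn1a, the p53 target that stops the cycle, was higher at 46.3 CPM (42.5 to 50.4) and 83.1 CPM (75.0 to 91.9), with 10.7% of the gof UMIs from 1 cell. It was the 1 call among 17 cyclin, inhibitor and p53 genes. Of 19 glycolysis and hypoxia genes only Pdk1 passed, at 10.99 and 19.6 CPM.

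Histone genes had the lowest median of the 26 lists. Only 8 of the 19 listed symbols were matched to the files, all 8 were measured, and 6 were lower, with a median of -1.19. Hist1h2ap, a core histone gene, was at 129 CPM (122 to 135) in control cells and 40.7 CPM (35.1 to 46.9) in gof cells. The linker histone genes H1f4, H1f3, H1f1 and H1f2 had log2 ratios of -1.25, -1.23, -1.14 and -0.76. H2az1, a variant made throughout the cycle, was at 6724 and 6891 CPM and H2ax at 277 and 238 CPM. In tdTomato-0 cells the histone median was also -1.19, with 5 of 7 lower. Transcripts of replication histones mostly lack poly(A) tails, so a library primed on poly(A) holds an unknown part of them, and members of such clusters can share reads.

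Adhesion and guidance genes moved in both directions. Of 24 adhesion and junction genes, 4 were higher and 4 lower, with a median of 0.03. Tenm4, a second teneurin, was lower at 203 CPM (195 to 212) and 118 CPM (108 to 128), while Tenm2 was higher. Pcdh10 and Pcdh19, protocadherins, were higher at 14.9 and 23.9 CPM and at 32.8 and 50.04 CPM, and Jup, the desmosomal relative of beta-catenin, at 5.15 and 14.1 CPM. Pcdh9 was lower at 82.3 CPM (77.1 to 87.7) and 47.0 CPM (40.9 to 53.7), with a log2 ratio of 0.08 in the neuron range. Cdh4 and Ncam2 were lower at log2 ratios of -0.77 and -0.71. Jup and Ncam2 no longer passed without the non-neural range, at 1.12 and -0.50.

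Of 30 guidance genes, 5 were higher and 2 lower. Unc5c, a netrin receptor gene, was at 90.4 and 147 CPM, Robo1, a Slit receptor gene, at 45.4 and 77.2 CPM, and Epha3, an Eph receptor gene, at 22.9 and 39.6 CPM. Slit3, a Robo ligand gene, was lower at 85.9 CPM (80.7 to 91.5) and 54.4 CPM (47.9 to 61.6), and Rgma at 79.1 and 41.3 CPM. Cxcl12, the chemokine that guides Cajal-Retzius cells from the meninges, was at 6.46 and 15.4 CPM with 12.7% of the gof UMIs from 1 cell, and Sema3a at 7.50 and 13.1 CPM with 18.3% from 1 cell. Neither of these 2 passed without the non-neural range.

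Matrix genes gave 8 higher members of 25 and 1 lower, but without the non-neural range, whose marker sums are given above, 3 of 19 were higher. Col4a1, a basement membrane collagen gene, was at 20.5 CPM (17.97 to 23.3) and 57.9 CPM (51.1 to 65.3), with 12.8% of the gof UMIs from 1 cell, and its log2 ratio was 1.45 with the non-neural range and 2.40 without it. Col3a1, a mesenchymal collagen gene, was at 33.6 and 90.1 CPM with 21.5% from 1 cell, and did not pass without that range. Lama1, a laminin chain of the neuroepithelial basement membrane, was lower at 17.4 and 10.0 CPM. Of 18 genes induced by tissue dissociation and stress, 5 were higher and 2 lower. Without the non-neural range 2 of 17 were higher (Ier3 and Socs3) and 3 lower, and Junb, Egr1 and Atf3 no longer passed. Gadd45b and Ddit3 were lower at log2 ratios of -0.64 and -0.71, and Gadd45b had a ratio of 0.01 in the neuron range.

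**Figure D3:**
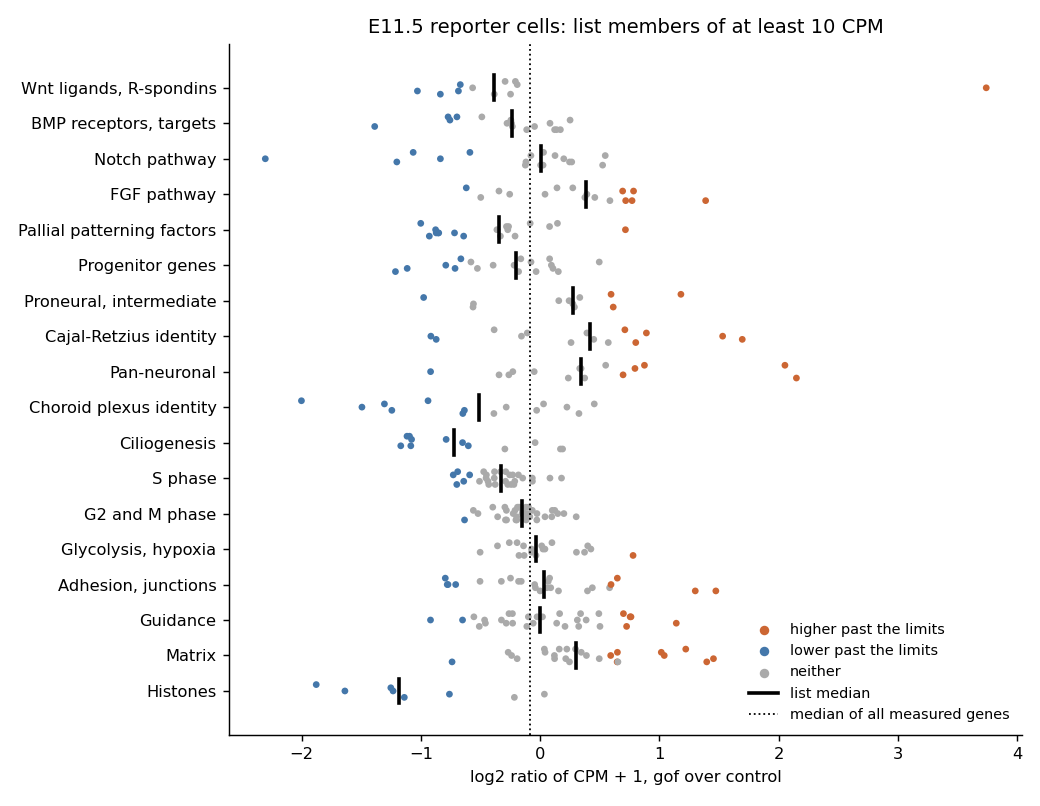
Log2 ratio gof over control of each measured member (at least 10 CPM in either group) of 18 gene lists in E11.5 reporter cells. Points are genes, coloured by whether they passed the limits, black bars are list medians and the dotted line is the median of all 8725 measured genes at -0.08. Ciliogenesis, choroid plexus and histone medians lie at -0.72, -0.51 and -1.19, and the Cajal-Retzius and FGF medians at 0.42 and 0.38.

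Levels were followed over 5 ranges of tdTomato UMIs: 0, 1, 2, 3 to 5, and 6 or more. The last held 47 control and 20 gof cells. The ranges are raw counts not scaled to depth, so they also sort cells by depth and are no plain scale of reporter level. Scaled tdTomato in gof cells was at 232 CPM at 3 to 5 UMIs and 234 CPM at 6 or more. In control cells it was at 178 and 253 CPM. Tenm2 stayed between 135 and 151 CPM in all 5 control ranges and went from 112 through 203, 342 and 418 to 503 CPM in gof. Rspo2 was higher in the last range than in the first in both libraries, from 120 to 813 CPM in control and from 97.1 to 402 CPM in gof. Ttr in control was at 117, 414, 446, 767 and 814 CPM, and in gof at 60.3, 284, 299, 222 and 27.2 CPM. The gof value in the highest range, 27.2 CPM (15.9 to 43.6), was the lowest of the gof series. That range includes gof barcodes of 87301 and 51072 UMIs, each with 11 tdTomato UMIs, that lie in the non-neural range. The first of them held 18167 erythroid UMIs. The cell with the most Ttr had 2 tdTomato UMIs, and without it that range was at 82.7 CPM in place of 299 CPM. Gmnc went from 19.1 to 128 CPM in control, while gof stood at 44.3 CPM at 2 UMIs and 22.4 CPM at 6 or more. Trp73 in gof was at 20.1 CPM (14.3 to 27.4) at 2 UMIs and 3.94 CPM (1.70 to 7.76) at 3 to 5, against 24.6 and 17.3 CPM in control.

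Hes5 was low in all 5 gof ranges, between 44.1 and 78.5 CPM, against 314 to 361 CPM in control. Across the limit that chose the cells, Mybpc1 was at 20.7 CPM in gof cells with 1 tdTomato UMI and 63.3 CPM in those with 2, and Pam at 190 and 281 CPM. Sox9 was at 113 and 109 CPM in the same cells. Cells of the non-neural range are included in all 5 ranges in these values.

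**Figure D4:**
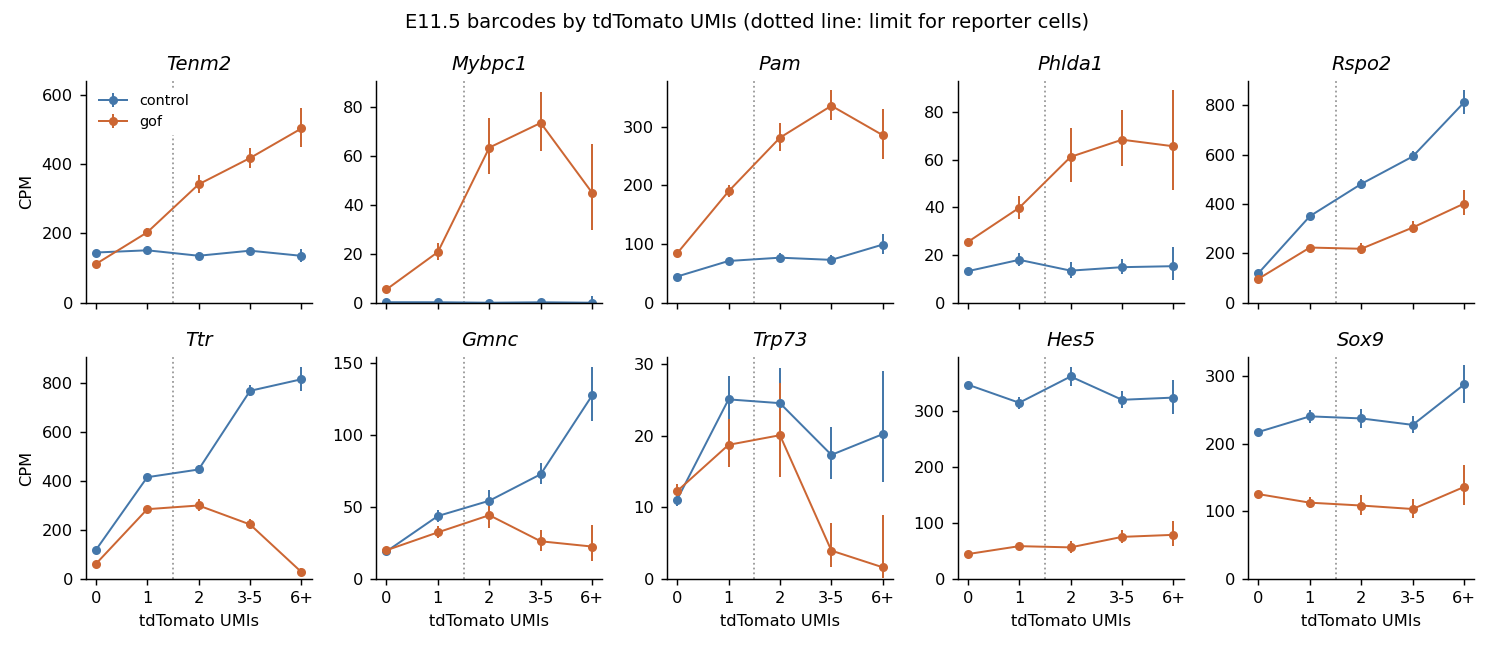
CPM (linear axes from 0) of 10 genes in all kept E11.5 barcodes by tdTomato UMIs, control in blue and gof in orange, with exact 95% Poisson intervals. The dotted line marks the limit of 2 UMIs. Tenm2 separates with more tdTomato UMIs, from 112 to 503 CPM in gof and 135 to 151 CPM in control. The intervals of Trp73 are apart from 3 UMIs and those of Gmnc at 1 and from 3 UMIs. The gof value of Ttr at 2 UMIs, 299 CPM, rests mainly on 1 cell, and Hes5 is apart in every range. The ranges are raw counts and also sort cells by depth.

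The gof reporter cells were not alike. After thinning to 3000 UMIs, 113 of 322 (35.1%, 29.9 to 40.6) held a UMI of Notum, Dkk1 or Wif1, against 14 of 635 control reporter cells (2.20%, 1.21 to 3.67). The split used these 3 genes, so they are no result of it, and a missed UMI leaves some cells on the wrong side. Tenm2 was at 231 CPM (213 to 249) in the 209 gof cells without such a UMI and 680 CPM (641 to 721) in the 113 with one. Mybpc1 was at 15.6 CPM (11.4 to 20.9) and 148 CPM (130 to 168), and Wnt6 at 6.25 CPM (3.70 to 9.88) and 50.4 CPM (40.2 to 62.4). Pam, Aspscr1, Nav3, Pax3, Gadd45g and Rhob were also higher in the cells with a feedback UMI, with separate intervals. All of these but Gadd45g had been chosen for their high gof ratios. The share of all measured genes with separate intervals in this split is not given here, so these are single values without a background. Dmrta1 was at 27.4 CPM in cells without it, close to the 27.3 CPM of control, and at 75.6 CPM in cells with it.

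Ttr was lower in the gof cells with a feedback UMI than in those without, at 358 CPM (336 to 380) in them and 10.2 CPM (5.94 to 16.3) in the cells with one, against 645 CPM in control cells of the same depth limit. The cell with the most Ttr was among those without a feedback UMI, and without it their level was 213 CPM. Htr2c was at 7.29 CPM (4.51 to 11.1) and at 0, which allows up to 2.21 CPM, but without the 1 cell that held most of it the first value was 3.50 CPM (1.68 to 6.43) and the intervals overlapped. Trp73 was at 12.5 CPM (8.75 to 17.3) and 3.00 CPM (0.974 to 7.0003), and Lhx1 at 25.3 CPM (19.9 to 31.9) and 7.20 CPM (3.72 to 12.6). A last set of genes differed little between the 2 kinds of gof cell. Both kinds stood on the same side of control for these genes, as they also did for Tenm2, Mybpc1, Pam, Wnt6, Ttr and Trp73. Hes5 was at 63.9 and 74.4 CPM against 337 CPM in control, Id1 at 132 and 148 CPM against 365 CPM, Spry2 at 170 and 184 CPM against 66.6 CPM, and Peak1 at 83.0 and 93.0 CPM against 31.0 CPM. In tdTomato-0 cells the log2 ratios of these 4 genes were -2.72, -1.68, 1.33 and 2.41.

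**Figure D5:**
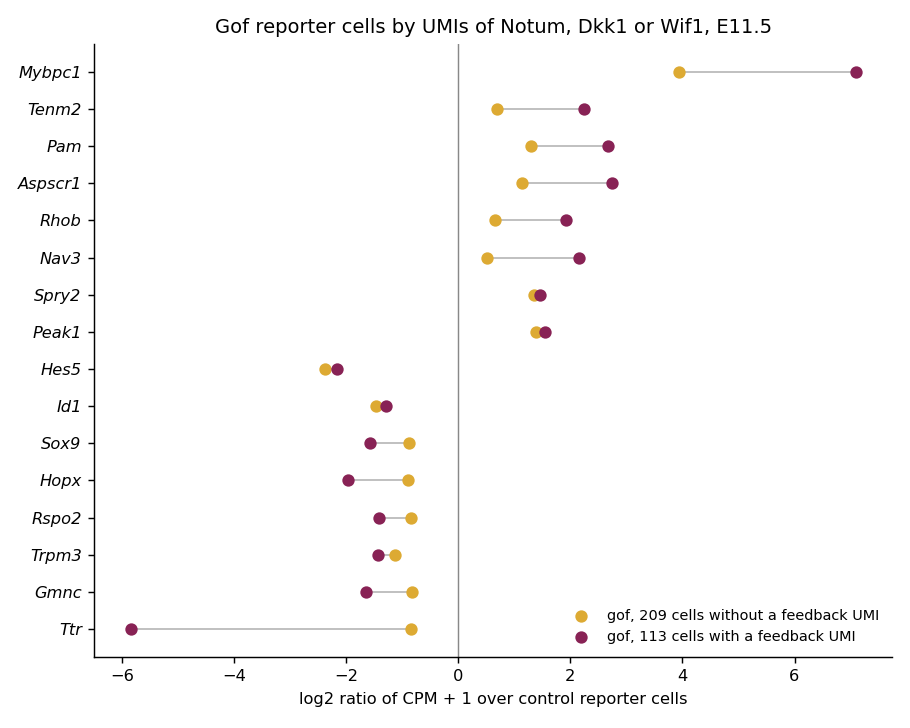
Log2 ratio of CPM + 1 over control reporter cells for 16 genes in 209 gof reporter cells without (yellow) and 113 with (purple) a UMI of Notum, Dkk1 or Wif1 after thinning. Mybpc1, Tenm2, Pam, Aspscr1, Rhob and Nav3 are further above control in the cells with a UMI, Ttr is at -5.85 in them and -0.85 in the others, and Spry2, Peak1, Hes5 and Id1 differ by little between the 2 kinds of cell.

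At E14.5, where 1259 control and 1161 gof cells met the same rule in libraries of other embryos, 650 of 10204 measured genes (6.37%) were higher in gof and 1551 (15.2%) lower. The 2 ages shared 136 higher genes, 31.8% of the E11.5 list and 20.9% of the E14.5 list, and 165 lower genes, 33.7% and 10.6%. In the opposite direction at E14.5 were 40 of the higher and 10 of the lower E11.5 genes. The size of these overlaps was not tested, and age, pool and library cannot be told apart. Mybpc1 was at 14.9 CPM in control cells and 475 CPM in gof cells at E14.5, Wnt6 at 0.8003 and 89.0 CPM, and Tex15 at 14.04 and 196 CPM. Ttr was at 11697 and 2180 CPM. Trp73 was at 92.6 and 5.35 CPM and Mcidas at 33.6 and 2.19 CPM, log2 ratios of -3.88 and -3.44 against -0.92 and -1.17 at E11.5. Of 15 measured Cajal-Retzius genes at E14.5, none was higher and 10 were lower, while the 5 higher genes of that list at E11.5 were Calb2, Lhx1, Ebf1, Ebf3 and Nhlh2. Ciliogenesis gave 16 lower genes of 18 and choroid plexus identity 16 of 20. Hes5 at E14.5 had a log2 ratio of -0.61 and Peak1 of 0.37, both nearer to 0 than at E11.5.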

How the data were processed

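Droplet single-cell RNA libraries (10x Chromium 3′ v3.1, 9000 cells targeted) were made from dissected telencephalic midline. The authors deposited, for each of 4 libraries, raw UMI counts per gene and barcode for 21937 features including tdTomato, which came from Cell Ranger 7.1.0 (genome build mm10), according to the submitters' processing notes. The gene models are not given in the sources used here, and deposited barcodes held at least 500 UMIs. Sample titles give E11 and E14 and the series text E11.5 and E14.5, and the latter are used.

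Reporter cells were chosen by at least 1000 genes, at most 10% mitochondrial UMIs and at least 2 tdTomato UMIs (Python 3.11.15, pandas 2.3.3, scipy 1.17.1). The gene and mitochondrial limits removed 616 control and 1084 gof barcodes at E11.5. The 2 E11.5 libraries shared 18 barcode sequences, and their reporter cells 0. UMIs were summed per library and divided by the summed total to give CPM, with exact 95% Poisson intervals; ratios add 1 CPM. With 1 library a side no test was made. Reads of free RNA were not removed. Scrublet (scanpy 1.11.5) by its own threshold marked 2 barcodes in each E11.5 library and so did not work, so no doublets were removed; removing the highest scores, 388 control and 461 gof barcodes, 76 and 34 of them reporter cells, was an alternative.

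Named genes are the 15 highest and 15 lowest ratios among called genes of at least 50 CPM in either group, the 2 members at either end of each list, and preset genes. Left out of the 15 are canonical Wnt targets, genes of haemoglobin, mitochondria or ribosomes, genes on Y, genes named after a clone, the 67 features with a repeated symbol, and genes with over 10% of the higher group's UMIs from 1 cell. Further genes are members of a list that passed the limits, or markers; Wnt6, Dmrta1 and Gadd45g in the split by feedback UMIs were picked after their values were seen. The members and the 26 lists were chosen with earlier results of these data known. The 0.3% limit for mesenchymal cells was set after seeing values. Coordinates are from GENCODE M21 (GRCm38), and promoters, the 250 bases before a start, from RefSeq, without chromosome 18. Scaling, pseudocount, level, depth, tdTomato limit, doublets and cell ranges were varied in 18 alternatives. Leaving out the gof cell with the most Ttr was chosen after seeing the values. The rule for calls was tested on simulated data with counting error only. That test says nothing about variation between cells, pools or libraries. Some genes of the lists are counted but not reported here by name.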

Additional observations from a re-analysis of the deposited data

Results flagged for a closer look

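Several genes stood on opposite sides of control at the 2 ages, past the limits at both; the difference between ages was not tested. Cd200 stood at a log2 ratio of 1.66 in the earlier cells and -1.41 in the later ones. Lhx1, the LIM factor of early neurons, had 1.53 and -2.07, and Crabp1, the retinoic acid carrier, 1.502 and -1.20; 1 cell gave over 10% of the E11.5 gof UMIs of each. The stress-induced genes Junb and Egr1 had 0.97 and 0.88 in the earlier cells and -0.77 and -1.52 in the later. Junb had 13.0% of its E11.5 gof UMIs in 1 cell. Without the non-neural range Crabp1, Junb and Egr1 did not pass the E11.5 limits. The histone gene Hist1h2ap had -1.64 and 1.22, and the protocadherin gene Pcdh9 -0.80 and 1.24.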

How the results depend on the processing

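No paired analysis was possible because each group is 1 library. Of 18 alternatives (17 planned and 1, leaving out barcodes over 1% haemoglobin, chosen after seeing the data), most kept the counts of 428 higher and 490 lower genes within 1.5 times. Higher genes numbered 107 at a level of at least 50 CPM, 776 with no filter on level, 171 at 2-fold and 209 in the neuron range alone. Lower genes numbered 325 with 5 CPM added, 167 at 50 CPM, 67 at 2-fold, 319 with cells thinned to 3000 UMIs and 175 in the neuron range. The log2 ratio of reporter shares, -1.03, was -0.26 after thinning, -0.50 at a limit of 1 tdTomato UMI and -1.48 at 5. Of 84 called named genes, 53 were still called after thinning, 56 at 5 tdTomato UMIs, 70 without the non-neural range, 76 without the highest Scrublet scores and 79 in the progenitor range. At 2-fold 49 were still called, at a level of at least 50 CPM 51, and in the neuron range alone 30 of 77. The sign turned for Insm1 at 5 tdTomato UMIs (-0.21), for Boc after thinning (0.32), and in the neuron range, 44 and 42 cells, for Gadd45b (0.0064), Calb2 (-1.41), Pcdh9 (0.076) and Ttr (0.16), none of them past the limits there; the cause was not tested. Ttr was at -2.23 without the gof cell that held the most of it. The gof group held 4596631 UMIs, so for genes near 10 CPM a 1.5-fold difference is near what counting error allows.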

Other observations

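Genes of at least 50 CPM with over 10% of the higher group's UMIs in 1 cell were left out of the 15 highest. Among them Osbpl7, an oxysterol-binding protein gene, was at 24.3 CPM in control cells and 164 CPM in gof cells, with 23.4% of the gof UMIs from 1 cell, and its log2 ratio in tdTomato-0 cells was 3.18.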
